A study of Mus musculus with 2 samples.

Results

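The sodium-potassium ATPase genes described here are 6 of the 25778 genes in the deposited count table: the FXYD regulators Fxyd6, Fxyd1 and Fxyd7, and the beta subunits Atp1b1, Atp1b2 and Atp1b3. They were chosen by name. Fxyd6 was picked because its level differed between the libraries in Müller glia (MG), and the other 5 were taken as its partners, so the MG values of Fxyd6 are given as a description and no claim rests on them.

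Single-cell RNA sequencing of whole retina at the age of 30 days compared Chx10-Cre (Ptbp1-Ctrl) with Chx10-Cre;Ptbp1lox/lox (Ptbp1-KO), with 1 library from 1 mouse for each genotype. Both groups carry Chx10-Cre, a transgene active in retinal progenitors, and in Ptbp1-KO it deletes the promoter and first exon of Ptbp1, which encodes a splicing regulator, in those progenitors and their descendants. The study asked whether retinal cells form and mature without Ptbp1. Retinas were dissociated with papain, and transcripts were counted at their 3′ ends as unique molecular identifiers (UMIs).

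The sodium-potassium ATPase pumps sodium out of the cell and potassium into it, and so maintains the gradients on which membrane potential and sodium-coupled transport depend. Its alpha subunit carries out catalysis, its beta subunit is needed for folding and delivery to the membrane, and small FXYD proteins bind the complex and tune its affinity for ions. In the retina the pump supports the photoreceptor dark current, while Müller glia, the radial glia of this tissue, take up the potassium and glutamate that neurons release.

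The Ptbp1-Ctrl library held 16421 cells and 32758836 UMIs, with a median of 1442 UMIs per cell, and the Ptbp1-KO library held 14522 cells and 35328593 UMIs, with a median of 1740. The methods describe a female mouse per genotype, but the 4 Y-linked genes examined had 1413 to 6164 UMIs each in Ptbp1-Ctrl and 1693 to 7085 in Ptbp1-KO, while Xist had 5 and 6. Both libraries thus went against the stated sex in the same way. A total of 63 cell barcodes occurred in both libraries. Ptbp1 itself, the targeted gene, had 294 UMIs in MG of Ptbp1-Ctrl (49.8 CPM) and 6 in MG of Ptbp1-KO (1.18 CPM). The cell types are those of the authors: MG, rods, cones, horizontal (HC), bipolar (BC), amacrine (AC) and retinal ganglion cells (RGC). Summed over the 5 MG markers Glul, Rlbp1, Slc1a3, Aqp4 and Sox9, MG stood at 14193 and 14603 CPM and no other type exceeded 418 CPM, so the MG label holds. Rod markers were present in every type, which in droplet data includes free RNA. In MG their sum was 6062 CPM for Ptbp1-Ctrl and 4765 CPM for Ptbp1-KO.

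Levels are in CPM, meaning that a gene's UMIs were summed over all cells of that type and library and divided by the total, times 1000000. With 1 library per genotype no test was possible, and every difference below compares these 2 libraries and lacks a replicate check. Brackets hold 95% intervals that cover counting error only, and genotype cannot be told apart from animal, dissociation or library.

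The 6 genes had distinct homes in the retina, and these were shared by both libraries. Fxyd6, Fxyd1 and Atp1b3 were highest in MG. Fxyd7 was highest in RGC, and Atp1b1 in RGC and HC, with AC next. Atp1b2 had UMIs in all types, with few in HC, and was highest in cones. Between the libraries, the differences in MG were a higher Fxyd6, a lower Atp1b3 and a slightly higher Atp1b2 in Ptbp1-KO, whereas Fxyd1 stood at nearly the same level.

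**Figure D1:**
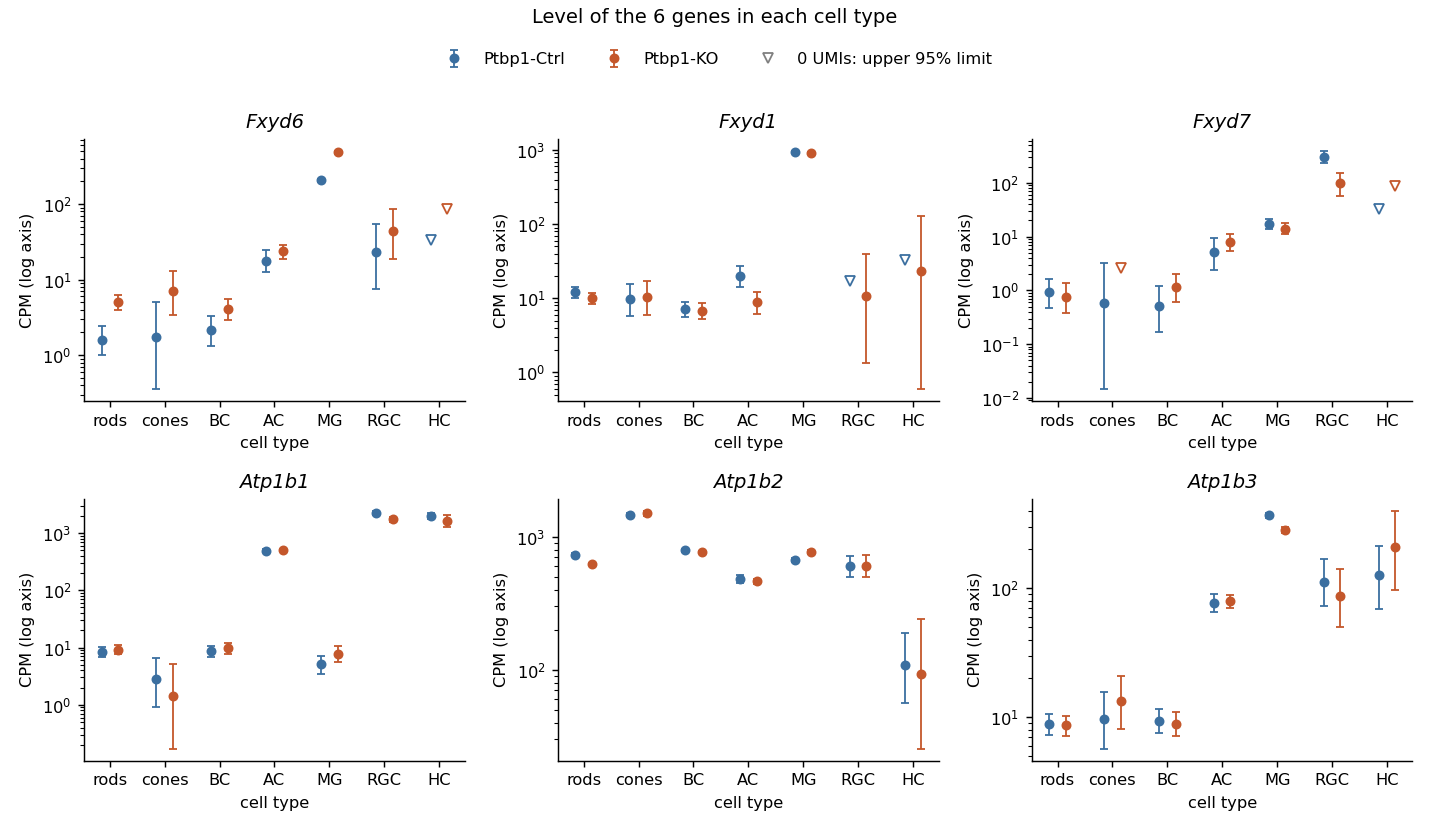
Level of each gene by cell type, in CPM on a log axis, for Ptbp1-Ctrl (blue) and Ptbp1-KO (orange), with 1 library per genotype. Bars are exact Poisson 95% intervals for counting error and open triangles mark the upper limit where no UMI was counted. Fxyd6 in MG stood at 205 and 481 CPM, and Fxyd1 in MG at 940 and 922 CPM.

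Fxyd6 encodes phosphohippolin, a FXYD regulator known from the brain. On chromosome 9 of GRCm38 the gene spans bases 45370185 to 45396159 of the plus strand. In MG it had 1213 UMIs in Ptbp1-Ctrl, or 205 CPM (194 to 217), and 2447 UMIs in Ptbp1-KO, or 481 CPM (462 to 501). The log2 ratio of Ptbp1-KO over Ptbp1-Ctrl was 1.23 (1.13 to 1.33). Ordered from the highest ratio, it took place 104 among the 12080 genes with at least 50 UMIs in MG, and place 8 among the 4205 genes with a mean of at least 50 CPM.

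The higher level was seen in all 3 MG clusters of the authors. In cluster 4, with 1386 and 994 MG, Fxyd6 stood at 222 and 515 CPM (log2 1.21, 1.11 to 1.32). Cluster 16, with 245 and 136 shallower cells, had 72.8 and 222 CPM (log2 1.61, 0.92 to 2.33). Cluster 22, with 89 and 54 deeper cells, had 139 and 252 CPM (log2 0.85, 0.40 to 1.32). Each interval lay above 0. The clusters are parts of the same MG in which Fxyd6 was picked, so this is a description and no separate support. Glul, the glutamine synthetase that marks MG, differed by 0.02, −0.02 and −0.12 on the log2 scale in the same clusters.

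**Figure D2:**
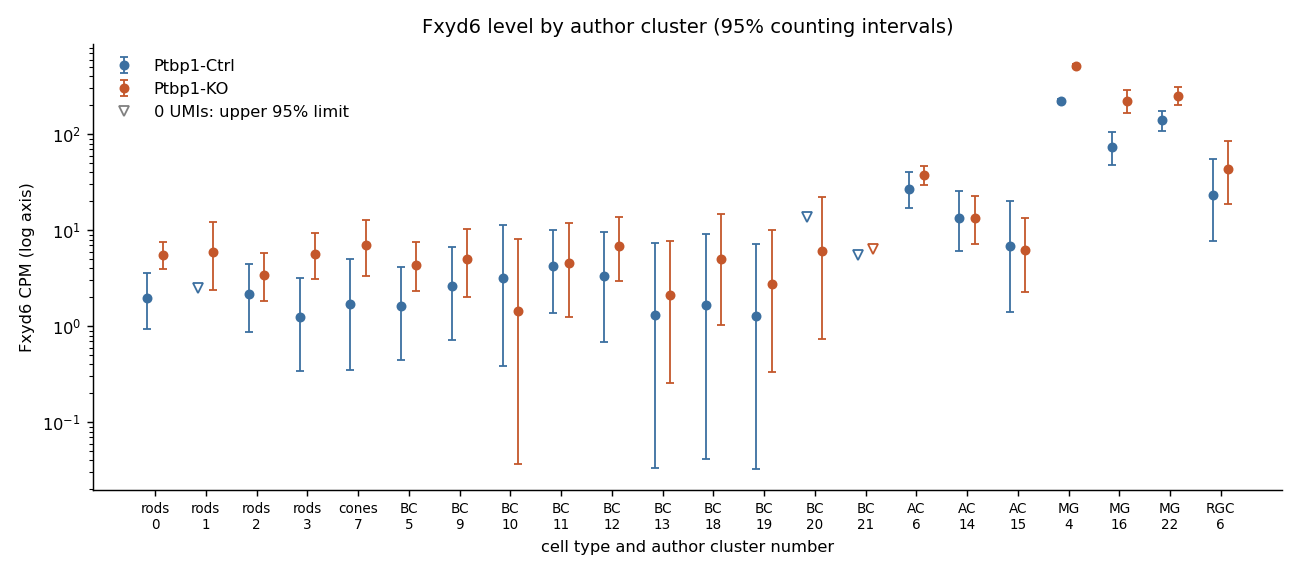
Fxyd6 level in each author cluster, in CPM on a log axis, for Ptbp1-Ctrl (blue) and Ptbp1-KO (orange), with exact Poisson 95% intervals and open triangles where no UMI was counted. The MG clusters 4, 16 and 22 stood highest in both libraries, and Ptbp1-KO was above Ptbp1-Ctrl in each.

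Per cell, more MG of Ptbp1-KO held a Fxyd6 transcript, and more of them held several. Of the 1720 Ptbp1-Ctrl MG, 670 held a Fxyd6 UMI (39.0%, 36.6 to 41.3), and of the 1184 Ptbp1-KO MG, 853 did (72.0%, 69.4 to 74.6). Median depth also differed, at 3333 and 4178 UMIs. With each cell thinned to 1000 UMIs, the shares were 16.5% (14.8 to 18.4) and 35.6% (32.9 to 38.5), after 57 and 11 shallower cells were left out. Rods, the most frequent cells and a source of the background share, held a Fxyd6 UMI in 0.136% and 0.486% of cells after the same thinning, from median depths of 1394 and 1639 UMIs among the rods that were kept.

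The distribution within MG was broad in both libraries. Before thinning, 4 or more Fxyd6 UMIs were held by 68 Ptbp1-Ctrl MG (3.95%, 3.08 to 4.99) and 232 Ptbp1-KO MG (19.6%, 17.4 to 21.97). The most in any cell was 10 in Ptbp1-Ctrl and 14 in Ptbp1-KO. In Ptbp1-Ctrl 48.5% of the Fxyd6 UMIs of MG came from the 10% of cells with most of them, and in Ptbp1-KO 34.3%. This share also depends on the mean number of UMIs per cell, which was higher in Ptbp1-KO.

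**Figure D3:**
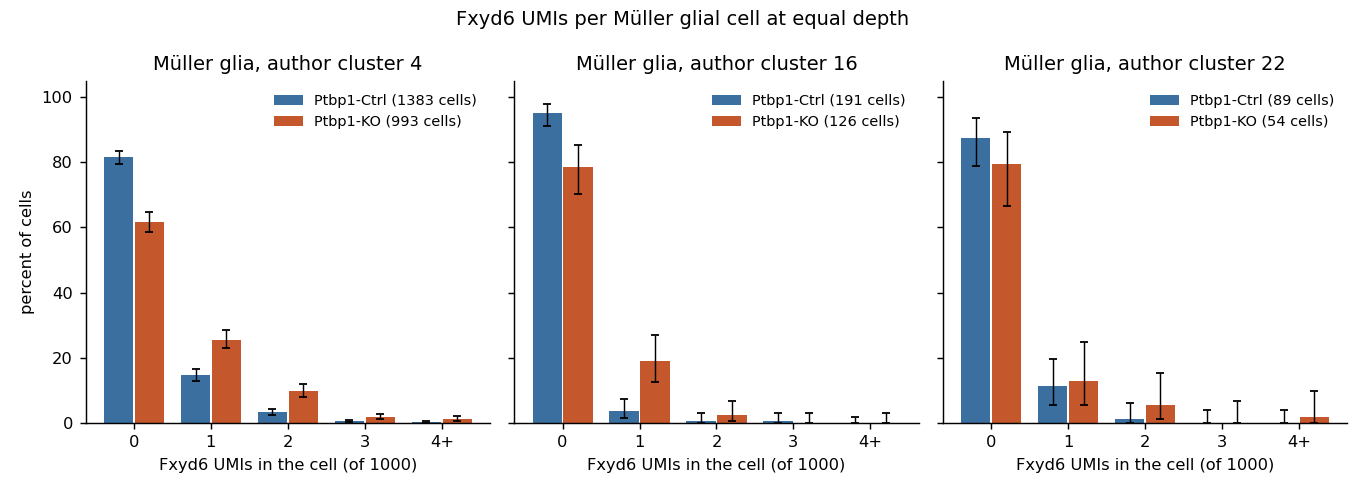
Percent of MG with 0, 1, 2, 3 or at least 4 Fxyd6 UMIs after each cell was thinned to 1000 UMIs, by author cluster, for Ptbp1-Ctrl (blue) and Ptbp1-KO (orange), with exact Clopper-Pearson 95% intervals. In cluster 4 the cells without a Fxyd6 UMI made up 81.6% in Ptbp1-Ctrl and 61.7% in Ptbp1-KO.

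Outside MG, Fxyd6 was scarce. Rods had 21 UMIs in Ptbp1-Ctrl (1.61 CPM) and 73 in Ptbp1-KO (5.04 CPM), a log2 ratio of 1.64 (0.93 to 2.42). BC had 21 and 42 UMIs (2.14 and 4.10 CPM, log2 0.94, 0.15 to 1.77), and cones 3 and 10 (log2 2.03, 0.07 to 4.53). These levels were 0.784% and 1.05% of the MG level in rods and 1.04% and 0.853% in BC, for Ptbp1-Ctrl and Ptbp1-KO respectively. The 5 MG markers stood at a median of 0.882% and 0.714% of their MG level in rods and 1.17% and 1.25% in BC. In rods the single markers ranged from 0.412% to 1.28% in Ptbp1-Ctrl and from 0.399% to 1.16% in Ptbp1-KO, and in BC from 0.521% to 3.63% and from 0.435% to 3.97%. Fxyd6 lay within these ranges in both types. In rods its share was higher in Ptbp1-KO while the median of the markers was lower. The part of free MG RNA in the rod and BC ratios was not tested, and no expression by rods or BC is read from them. In cones it stood at 0.837% and 1.46%, beside 0.197% to 1.25% and 0.507% to 1.10% for the markers, from the 3 and 10 UMIs given above.

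Fxyd6 was higher in AC. They had 35 UMIs in Ptbp1-Ctrl, or 17.9 CPM (12.5 to 24.9), and 91 in Ptbp1-KO, or 23.6 CPM (19.0 to 29.0), and the log2 ratio of 0.40 (−0.18 to 1.01) did not exclude 0. The AC level was 8.71% and 4.90% of the MG level, against 2.49% to 4.55% (median 2.72%) and 1.46% to 4.61% (median 1.83%) for the MG markers. In Ptbp1-KO it was thus close to the highest marker, Slc1a3. It differed between AC clusters, with 27.0 and 37.5 CPM in cluster 6, 13.4 CPM in both libraries in cluster 14, and 6.91 and 6.20 CPM in cluster 15. RGC had 5 and 8 UMIs. HC had none in 17 and 7 cells, which allows up to 33.3 and 86.1 CPM.

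Fxyd1 encodes phospholemman, the FXYD protein best known as a phosphorylated regulator of the pump in heart and muscle. It spans bases 31051678 to 31057199 of chromosome 7, minus strand, with 210 bases between it and Fxyd7 on the same strand. In MG it had 5552 UMIs in Ptbp1-Ctrl, or 940 CPM (915 to 965), and 4690 in Ptbp1-KO, or 922 CPM (896 to 949). The log2 ratio was −0.03 (−0.08 to 0.03), so a difference of the size seen for Fxyd6 was outside its counting interval. Cluster 4 stood at 1022 and 981 CPM, cluster 16 at 405 and 477 CPM, and cluster 22 at 531 and 519 CPM. With cells thinned to 1000 UMIs, 57.7% (55.3 to 60.1) and 57.0% (54.1 to 59.9) of MG held a Fxyd1 UMI.

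In the neurons Fxyd1 was low. Rods had 12.04 and 9.93 CPM (log2 −0.28, −0.61 to 0.06) and BC 7.15 and 6.74 CPM (log2 −0.09, −0.59 to 0.42). AC had 39 UMIs in Ptbp1-Ctrl, or 19.9 CPM (14.2 to 27.2), and 34 in Ptbp1-KO, or 8.81 CPM (6.10 to 12.3), which gave a log2 ratio of −1.18 (−1.88 to −0.48). Likewise the sum of the 5 MG markers in the same AC was lower, at 418 and 308 CPM, with 4 of the 5 lower in Ptbp1-KO. Glul differed by −0.53 (−0.70 to −0.36), Rlbp1 by −0.94 (−1.32 to −0.56), Aqp4 by −0.73 (−1.45 to −0.01) and Sox9 by −0.61 (−1.33 to 0.11), whereas Slc1a3 differed by 0.21 (−0.09 to 0.52). AC also fell into clusters differently in the libraries. Cluster 14, the AC cluster with most Fxyd1, held 223 of the AC in Ptbp1-Ctrl and 214 in Ptbp1-KO, whereas cluster 6 held 293 and 478 and cluster 15 held 160 and 253. The Fxyd1 ratio was −1.17 (−2.52 to 0.17) in cluster 6 and −1.04 (−1.96 to −0.14) in cluster 14, and cluster 15 had 1 and 4 UMIs. The interval excluded 0 in cluster 14 but not in cluster 6, where the ratio was similar and each library had 11 UMIs. These values do not tell the 2 clusters apart. The part of MG RNA and of the mix of AC in the difference of Fxyd1 was not tested.

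Fxyd7 encodes a FXYD regulator found in brain neurons. It spans bases 31042513 to 31051467 of chromosome 7, minus strand. RGC had 65 UMIs in Ptbp1-Ctrl, or 305 CPM (235 to 389), and 18 in Ptbp1-KO, or 98.0 CPM (58.1 to 155), for a log2 ratio of −1.64 (−2.48 to −0.87). These counts came from few cells, which the authors named RGC. Of these, 123 in Ptbp1-Ctrl and 97 in Ptbp1-KO lay within cluster 6, a cluster that also holds AC. Only 19 of the 124 Ptbp1-Ctrl RGC held a Fxyd7 UMI (15.3%, 9.48 to 22.9), as did 11 of the 97 Ptbp1-KO RGC (11.3%, 5.80 to 19.4), and these intervals overlapped. The most in any RGC was 13 UMIs for Ptbp1-Ctrl and 6 for Ptbp1-KO.

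RGC markers differed between the same cells. Nefl, a neurofilament gene, was lower in Ptbp1-KO by −0.75 on the log2 scale (−1.22 to −0.29) and Rbpms stood at −0.61 (−1.30 to 0.07), while Thy1 stood at 0.09 (−0.24 to 0.43). Summed over the 5 RGC markers, the level was 2122 CPM for Ptbp1-Ctrl and 1754 CPM for Ptbp1-KO, and that of the 5 rod markers 23027 and 28370 CPM. The part of RGC subtype or rod RNA in the Fxyd7 difference was not tested. Elsewhere Fxyd7 was near the limit of counting. MG had 102 and 72 UMIs (17.3 and 14.2 CPM, log2 −0.29, −0.74 to 0.16), AC 10 and 31, and no other type more than 12.

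The number of these genes past a 1.5-fold difference was set beside the share of all genes past it, among genes with at least 50 UMIs over both libraries. In MG, where 4.64% of the 12080 genes were at least 1.5-fold higher in Ptbp1-KO and 3.11% lower (7.75% in all), all 6 had enough UMIs, and Fxyd6 and Atp1b1 were past the fold, both higher. Because Fxyd6 was chosen on this contrast and the Atp1b1 interval included 0, nothing is read from that count. In rods, where 8.95% of genes were higher and 1.37% lower (10.3% in all), Fxyd6 alone of 5 was past the fold, and likewise in BC, where 3.53% were higher and 2.07% lower (5.59% in all). In AC, where 3.89% were higher and 2.95% lower (6.85% in all), Fxyd1 alone of 5 was past it, lower in Ptbp1-KO. In cones only Atp1b2 had enough UMIs and was within the fold, where 4.29% were higher and 3.19% lower (7.48% in all).

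**Figure D4:**
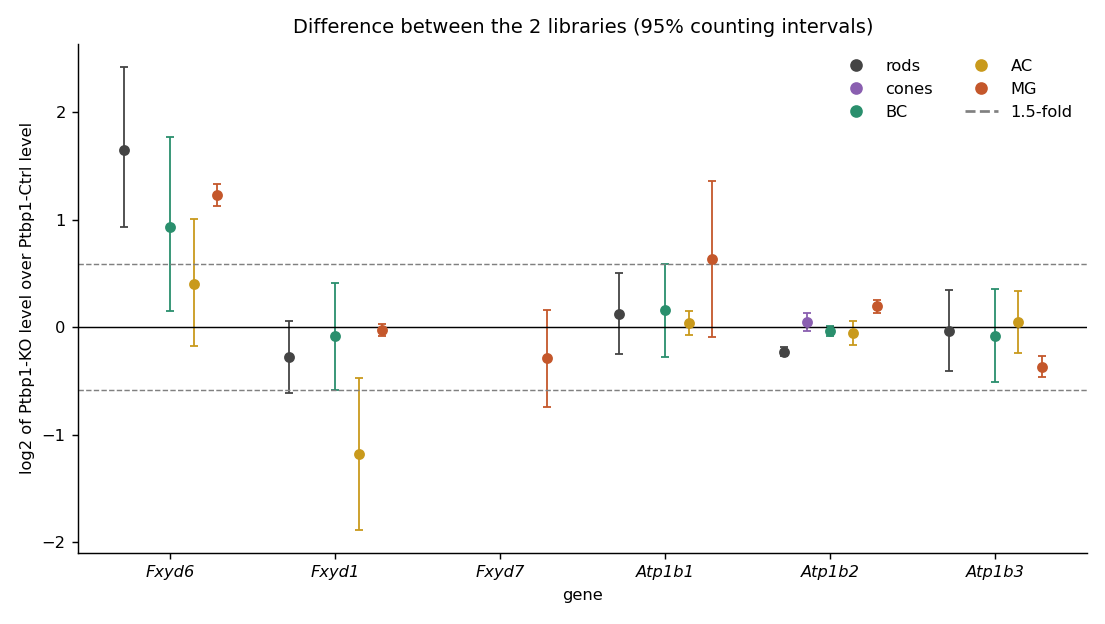
Log2 ratio of the Ptbp1-KO over the Ptbp1-Ctrl level for each gene in the 5 larger cell types, where at least 50 UMIs were counted over both libraries, with exact 95% counting intervals. Dashed lines mark 1.5-fold, and in MG Fxyd6 (1.23) stood above the upper line while Fxyd1 (−0.03), Atp1b2 (0.19) and Atp1b3 (−0.37) lay between the lines.

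Atp1b1 encodes the most widespread beta subunit and was a gene of inner retinal neurons here. It spans bases 164437109 to 164458355 of chromosome 1, minus strand. AC had 965 UMIs in Ptbp1-Ctrl, or 493 CPM (463 to 525), and 1950 in Ptbp1-KO, or 506 CPM (483 to 528), for a log2 ratio of 0.04 (−0.08 to 0.15). The 3 AC clusters ranged from 380 to 659 CPM in Ptbp1-Ctrl and from 335 to 749 CPM in Ptbp1-KO, and each interval of the ratio included 0. RGC stood at 2234 and 1732 CPM (log2 −0.37, −0.58 to −0.16), and HC at 1986 and 1634 CPM (log2 −0.28, −0.69 to 0.11). In the same RGC the 5 RGC markers summed to 2122 and 1754 CPM and the 5 rod markers to 23027 and 28370 CPM. The part of RGC subtype or rod RNA in the Atp1b1 difference was not tested. The share of RGC with an Atp1b1 UMI was 83.1% (75.3 to 89.2) and 80.4% (71.1 to 87.8).

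In the other types Atp1b1 stayed below 10 CPM. MG had 30 UMIs in Ptbp1-Ctrl (5.08 CPM, 3.43 to 7.25) and 40 in Ptbp1-KO (7.87 CPM, 5.62 to 10.7), and the log2 ratio of 0.63 (−0.09 to 1.36) did not exclude 0 and became −0.23 with cells thinned to 1000 UMIs. The summed AC markers in MG were 558 and 643 CPM, of which Pax6, a gene that MG also express, made up 539 and 614 CPM. Gad1, a gene of inhibitory neurons, had 24 and 40 UMIs in MG. The part of AC RNA in the Atp1b1 values of MG was not tested.

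Atp1b2 encodes the beta subunit also called AMOG, the adhesion molecule on glia. It spans bases 69599736 to 69605942 of chromosome 11, minus strand. Cones were highest, with 1457 CPM (1401 to 1515) in Ptbp1-Ctrl and 1505 CPM (1442 to 1570) in Ptbp1-KO (log2 0.05, −0.04 to 0.13). BC followed with 790 and 770 CPM (log2 −0.04, −0.08 to 0.01), and the level varied more among the 10 BC clusters of the authors, from 434 to 1341 CPM, than between the libraries. AC had 482 and 464 CPM (log2 −0.06, −0.17 to 0.06) and RGC 601 and 605 CPM. HC had 12 and 4 UMIs. The 5 rod markers summed to 23027 and 28370 CPM in RGC, beside 38675 and 35550 CPM in rods. The part of rod RNA in the Atp1b2 level of RGC was not tested.

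Rods and MG differed between the libraries in opposite directions. In rods Atp1b2 had 9588 UMIs in Ptbp1-Ctrl, or 735 CPM (721 to 750), and 9087 in Ptbp1-KO, or 627 CPM (614 to 640), a log2 ratio of −0.23 (−0.27 to −0.19). In MG it had 670 CPM (649 to 691) and 765 CPM (741 to 790), a log2 ratio of 0.19 (0.13 to 0.26). By cluster the MG ratio was 0.20 (0.14 to 0.27) in cluster 4, 0.24 (−0.04 to 0.51) in cluster 16 and 0.08 (−0.14 to 0.30) in cluster 22. The interval excluded 0 only in cluster 4, which held the most MG, and the intervals of the clusters overlapped. The median rod gene stood at 0.07 on the same scale, and TMM and median-of-ratios scaling moved all rod ratios by −0.09 and −0.11, which put Atp1b2 in rods at −0.32 and −0.34.

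The rod clusters differed widely in Atp1b2, and the libraries differed in how rods fell among them. Cluster 0 held 4614 rods of Ptbp1-Ctrl and 5462 of Ptbp1-KO and had 429 and 382 CPM (log2 −0.17, −0.25 to −0.08). Cluster 3 held 1835 and 972 rods and had 1284 and 1208 CPM (log2 −0.09, −0.16 to −0.02). Cluster 1 had 564 and 445 CPM (log2 −0.34, −0.50 to −0.18), and cluster 2 had 751 and 757 CPM (log2 0.01, −0.07 to 0.09). Weighting the 4 clusters equally gave −0.15, a smaller difference than the −0.23 over all rods.

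Atp1b3 encodes the remaining beta subunit of this group and was a gene of MG in these libraries. It spans bases 96332655 to 96364442 of chromosome 9, minus strand. In MG it had 2167 UMIs in Ptbp1-Ctrl, or 367 CPM (352 to 383), and 1444 in Ptbp1-KO, or 284 CPM (269 to 299), which gave a log2 ratio of −0.37 (−0.47 to −0.27). By cluster the ratio was −0.37 (−0.48 to −0.27) in cluster 4, −0.17 (−0.61 to 0.27) in cluster 16 and −0.66 (−1.10 to −0.23) in cluster 22. It was therefore lower in Ptbp1-KO in each cluster, beyond counting error in 2 of the 3. At 1000 UMIs per cell, 28.7% (26.5 to 30.9) and 22.2% (19.8 to 24.7) of MG held an Atp1b3 UMI. Without thinning the shares, 63.6% and 62.7%, did not show this difference, since cells of Ptbp1-KO were deeper.

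Over whole cell types outside MG, no difference in Atp1b3 was detectable at this depth. By author cluster outside MG, the interval excluded 0 only in BC cluster 21, from 3 and 12 UMIs (log2 2.23, 0.34 to 4.69). AC had 76.7 and 79.1 CPM (log2 0.04, −0.24 to 0.34). Rods had 8.82 and 8.62 CPM (log2 −0.03, −0.41 to 0.35) and BC 9.40 and 8.89 CPM (log2 −0.08, −0.51 to 0.35). RGC had 24 and 16 UMIs and HC 14 and 9, with intervals of the ratio from −1.38 to 0.60 and from −0.66 to 2.04.

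In MG the make-up of the beta subunit transcripts differed beyond counting error, while no difference in their sum was detectable. Together the 3 beta genes had 1042 CPM in Ptbp1-Ctrl MG and 1057 CPM in Ptbp1-KO MG, with a log2 ratio of 0.02 (−0.03 to 0.07). Atp1b2 made up 64.3% (63.1 to 65.5) of these UMIs in Ptbp1-Ctrl and 72.4% (71.2 to 73.6) in Ptbp1-KO, and Atp1b3 made up 35.2% (34.0 to 36.4) and 26.9% (25.7 to 28.1). Atp1b1 was at 0.488% and 0.744%. A share depends on how well the 3′ end of each gene is captured, so it is compared only for the same gene between types and libraries.

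In rods the sum of the 3 beta genes was lower in Ptbp1-KO, with 753 and 645 CPM (log2 −0.22, −0.26 to −0.18), and so it was in RGC, with 2948 and 2424 CPM (log2 −0.28, −0.46 to −0.10). The RGC markers were also lower in these RGC (2122 and 1754 CPM) and the rod markers higher (23027 and 28370 CPM). Their part in the beta sum and shares of RGC was not tested. In cones, BC, AC and HC the interval of the ratio of the beta sum included 0. Atp1b2 made up 97.2% to 99.1% in rods, cones and BC of both libraries. In AC the shares were 46.9% Atp1b1, 45.8% Atp1b2 and 7.29% Atp1b3 in Ptbp1-Ctrl, and 48.2%, 44.2% and 7.54% in Ptbp1-KO, with overlapping intervals. Atp1b1 made up 75.8% and 71.5% in RGC and 89.4% and 84.3% in HC, again with overlapping intervals.

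**Figure D5:**
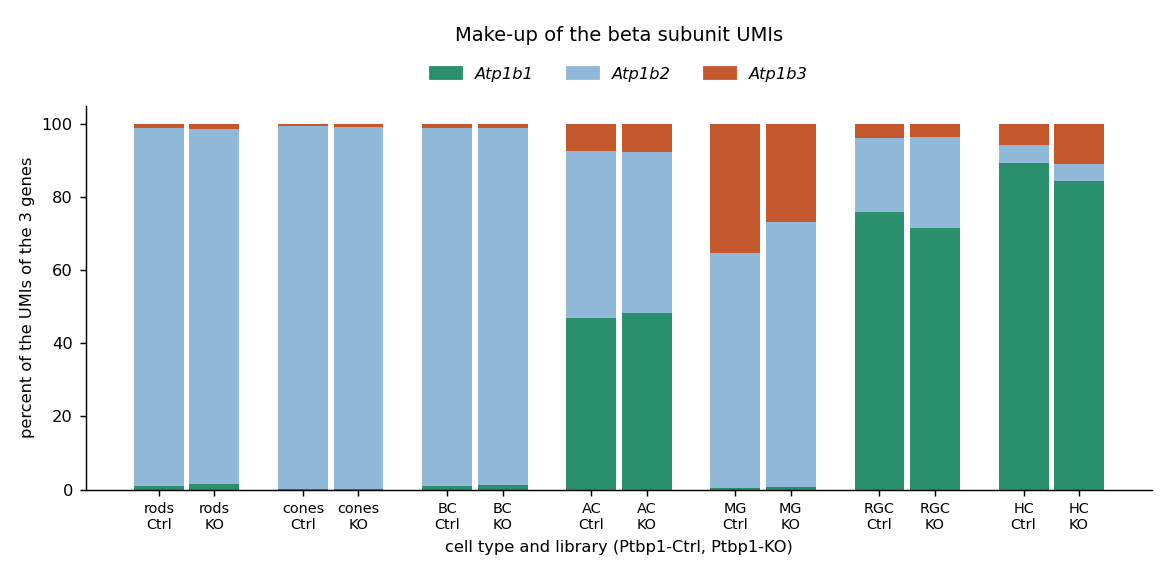
Percent of the summed UMIs of Atp1b1 (green), Atp1b2 (blue) and Atp1b3 (orange) in each cell type, with 1 bar per library. The Atp1b3 part of MG was 35.2% in Ptbp1-Ctrl and 26.9% in Ptbp1-KO, and Atp1b2 made up nearly all of the UMIs in rods, cones and BC.

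Other genes of the pump and of proteins that bind it were taken as a list of 15. In MG 10 of the 15 had at least 50 UMIs, and 2 of these, Fxyd2 and Nkain3, were at least 1.5-fold higher in Ptbp1-KO and none lower, beside 4.64% higher and 3.11% lower over all MG genes. Fxyd2 lies next to Fxyd6 on the same strand, and whether transcripts of either gene were counted for the other was not tested. The median log2 ratio of the 10 was 0.32, beside −0.00 over all 12080 MG genes. Fxyd3, a FXYD regulator known from epithelia, had 27.9 CPM in MG of the Ptbp1-Ctrl library and 35.0 CPM in MG of the Ptbp1-KO library (log2 0.33, 0.01 to 0.64). Mlc1, a membrane protein of glial endfeet, had 261 and 322 CPM in MG (log2 0.30, 0.20 to 0.40). Both were scarce outside MG, with at most 4 UMIs of Fxyd3 in any neuronal type and library.

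A second list of 9 genes held channels and transporters of ions, water and glutamate, of which some are MG genes and others are mainly neuronal. Slc8a1, a sodium-calcium exchanger, stood at 12.5 and 12.4 CPM in MG against 626 and 620 CPM in AC, and Kcnj2, a potassium channel, had 0 and 1 UMIs in MG. Of the 9 genes 8 had at least 50 UMIs in MG, and none was past 1.5-fold in either direction. Kcnj10, the main potassium channel of MG, had 288 and 302 CPM (log2 0.07, −0.03 to 0.17), and Aqp4, the water channel, 658 and 673 CPM (log2 0.03, −0.03 to 0.10). Slc1a3, the glial glutamate transporter, had 1451 and 1661 CPM (log2 0.20, 0.15 to 0.24).

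The genes nearest to Fxyd6 were described because of their position. Fxyd2, which encodes the gamma subunit known from kidney, starts 3509 bases beyond the end of Fxyd6 on the same strand. It had 17 UMIs in MG of Ptbp1-Ctrl, or 2.88 CPM, and 72 in MG of Ptbp1-KO, or 14.2 CPM, a log2 ratio of 2.30 (1.52 to 3.15). Dscaml1, 30468 bases away, had 504 and 356 UMIs in MG (log2 −0.29, −0.49 to −0.09). On the other side Tmprss13, Il10ra and BC049352 had no UMI in MG of either library. The remaining neighbour, 4833428L15Rik, had 8 and 12 UMIs in MG. Whether position has a part in the Fxyd6 difference was not tested.

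The genes most like Fxyd6 across the 5 larger types in both libraries were Slc1a3, Tsc22d4, Folh1, Malat1 and Tmco1, with Pearson correlations of log2 CPM from 0.98 down to 0.975 over 10 sums, among 4435 genes. This is a description, since the sums share 2 libraries and a contrast between MG and neurons sets most of it. MG of both libraries are among the 10 sums, so a similar ratio in MG is partly built into the choice. In MG these 5 genes had log2 ratios of 0.20, 0.13, 0.69, 0.28 and 0.33. The genes most like Atp1b3 were Ptn, Dkk3, Prex2, Golga7 and Bcl6, with ratios in MG of 0.28, 0.06, −0.07, −0.16 and 0.01. None of these 5 reached the −0.37 of Atp1b3. Those most like Fxyd1 were Pon2, Id3, Rlbp1, Vim and Il33, with ratios from −0.27 to 0.09.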

How the data were processed

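The authors prepared 10x Genomics 3′ libraries (chemistry version 3.1), processed them with Cell Ranger 7.0.1 and Seurat 4 on mm10 per the labels, and deposited raw UMI counts for 25778 genes in 30943 cells, with a cell table. The gene annotation and the treatment of intronic reads are not given in the sources used here. All cells met the authors' stated filter (above 200 and below 5000 genes, above 700 and below 10000 UMIs, mitochondrial percent below 20). The deposited cell table also gave each cell's mitochondrial percent, cluster and cell type. A further 2 columns of per-cell values were not used, and no doublet caller was run.

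Counts were summed by library and cell type. Each sum gave CPM with an exact Poisson interval, log2 ratios with an exact conditional binomial interval, and shares with an exact Clopper-Pearson interval, all at 95% and for counting error only. With 1 library per genotype no test was run. The calculation of ratios was tested on simulated data. Cells were thinned to 1000 UMIs (2000 as an alternative) to compare shares. Alternatives used TMM (edgeR 4.0.16) and median-of-ratios factors (DESeq2 1.42.0) for scaling only, means over cells, 2 filters on cells and a subtraction of free RNA. Gene positions came from GENCODE annotation of GRCm38. Analyses used Python 3.11.15, scipy 1.17.1 and R 4.3.3.

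Named genes were the 6 genes, the fixed lists of pump, ion-handling and neighbouring genes, Ptbp1, cell type markers, and the 5 genes most correlated with a gene over 10 sums with a mean of at least 50 CPM, on log2(CPM + 1). Some genes of these lists are not reported here. The genes and lists were chosen with earlier results of these data known. The Y-linked genes and Xist were looked at as a check of the libraries.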

Additional observations from a re-analysis of the deposited data

Results flagged for a closer look

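A few genes differed between the libraries in opposite directions in different cell types, each beyond its counting interval. None of these contrasts between types was tested, since there was 1 library per genotype. Atp1b2 had a log2 ratio of −0.23 in rods (−0.27 to −0.19) and of 0.19 in MG (0.13 to 0.26). Nkain3, which encodes a protein that binds the pump, had −0.29 in BC (−0.48 to −0.10), 0.71 in AC (0.34 to 1.09) and 1.11 in MG (0.71 to 1.52). Its level was 52.8 and 43.2 CPM in BC, 40.9 and 66.9 CPM in AC, and 13.4 and 28.9 CPM in MG. Dscaml1, the adhesion molecule gene near Fxyd6, had −0.09 in rods (−0.14 to −0.04), −0.17 in AC (−0.29 to −0.04) and −0.29 in MG (−0.49 to −0.09), but 0.29 in cones (0.12 to 0.46).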

How the results depend on the processing

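The Fxyd6 ratio in MG lay between 1.19 and 1.30 under 9 alternatives, the Atp1b3 ratio in MG between −0.40 and −0.35 under 8, and the Fxyd1 ratio in MG between −0.06 and 0.05 under 8. Atp1b2 kept its sign in rods (−0.63 to −0.15) and in MG (0.16 to 0.68), and Fxyd1 in AC ranged from −2.62 to −0.86. The ends −0.63, 0.68 and −2.62 came from subtracting the lowest level over types as free RNA, which for Atp1b2 takes the AC level and so removes true expression. Atp1b1 in MG ranged from −0.23 to 1.55. Alternatives were run for the ratios of the 6 genes with at least 50 UMIs in MG, rods, cones, BC and AC. Among these, no ratio whose interval excluded 0 changed sign, and of 151 alternative values other than those of Fxyd6 in MG, 16 left the counting interval of the main value. The ratios in RGC and HC, that of Fxyd6 in cones and those of genes outside the 6 were given under 1 setting only. The averages over clusters and the values of cluster 4 alone were chosen after seeing the data.

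The background share past the fold depended on the count minimum and the fold, by construction. With at least 20 UMIs it was 16.4% in rods, 13.5% in cones, 9.86% in BC, 11.8% in AC, and 7.16% higher and 4.92% lower in MG. With 1 UMI in each library it was 29.8%, 27.1%, 22.9%, 26.1%, 13.6% and 9.77% in the same order, with a mean of 50 CPM 1.63%, 2.58%, 0.910%, 1.28%, 1.498% and 0.927%, and at 2-fold 3.08%, 1.29%, 1.52%, 1.06%, 1.28% and 0.712%. With cells thinned to 2000 UMIs, a Fxyd6 UMI was held by 29.7% of Ptbp1-Ctrl MG and 55.8% of Ptbp1-KO MG. Without the 25% of MG richest in RNA of other types, Atp1b2 made up 61.7% and 70.1% of beta UMIs and Atp1b3 37.9% and 29.0%.

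No paired analysis was possible because each genotype had 1 library. Depth limits the genes of RGC and HC and the low genes outside their main type, and no replicate error is known for any value.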

Other observations

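In neurons, genes of the ion-handling list that are not the pump itself also differed between the libraries. Slc8a1, a sodium-calcium exchanger that depends on the sodium gradient, had 300 CPM in RGC of the Ptbp1-Ctrl library and 152 CPM in those of Ptbp1-KO (log2 −0.98, −1.67 to −0.32), from 64 and 28 UMIs. In AC it had 626 and 620 CPM (log2 −0.01, −0.11 to 0.09), and in BC it was higher in Ptbp1-KO, with 305 and 338 CPM (log2 0.15, 0.08 to 0.22). In the same RGC the summed RGC markers were lower and the rod markers higher in Ptbp1-KO, and their part in the Slc8a1 difference was not tested. In rods, where 8.95% of all genes were at least 1.5-fold higher in Ptbp1-KO and 1.37% lower, 2 of the 8 genes of this list with at least 50 UMIs were past the fold, both higher. These were Slc24a2, the cone-type exchanger of sodium, calcium and potassium, with 3.91 and 6.55 CPM (log2 0.74, 0.24 to 1.26), and Slc4a4, a sodium-bicarbonate cotransporter, with 2.68 and 4.21 CPM (log2 0.65, 0.03 to 1.29). Both are low in rods, and stood at 594 and 654 CPM in cones for Slc24a2 and at 93.1 and 91.6 CPM in BC for Slc4a4. TMM and median-of-ratios scaling moved all rod ratios by −0.09 and −0.11. Under either of them Slc4a4 in rods was within the fold. In AC, where the shares over all genes were 3.89% and 2.95%, 1 of 7 was higher (Slc4a4, 14.8 and 23.3 CPM, log2 0.65, 0.04 to 1.31) and 1 lower (the MG marker Aqp4, 16.4 and 9.85 CPM, log2 −0.73, −1.45 to −0.01). With so few genes past the fold, nothing is read from these counts. Nkain2 was higher in Ptbp1-KO in rods (log2 0.48, 0.20 to 0.78), BC (0.27, 0.06 to 0.48) and AC (0.34, 0.07 to 0.60).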
